A study of Homo sapiens with 6 samples.

Results

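Predicted piRNAs that lie in LTR retrotransposons were described in small RNA libraries of BEAS-2B, an immortalised line of human bronchial epithelial cells. Members were all entries of the piRNA class whose description names an LTR repeat, and 329 of the 4212 entries listed over the 6 libraries met this rule. They made up 35% of the 940 piRNAs predicted from these reads, beside 399 in LINE elements and 212 in DNA transposons. The control cells had received the plasmid pcDNA3.1 (n = 3) and the others pcDNA-PRMT1, labelled PRMT1 over-expression (n = 3), for 48 h in both groups. Since no label says whether the libraries of a group came from separate cultures, p-values measure the spread between these libraries, which may be technical.

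PIWI-interacting RNAs (piRNAs) are small RNAs, somewhat longer than miRNAs, that are made from long single-stranded precursors without Dicer and guide PIWI proteins to transposon transcripts. They are known mainly from the germ line, where arginine methylation of PIWI proteins, read by Tudor domain proteins, is part of the pathway. PRMT1 is the main enzyme that places asymmetric dimethylation on arginine, and whether it acts on PIWI proteins was not measured here. LTR retrotransposons are remnants of retroviruses and their relatives. ERV1 elements are related to gammaretroviruses, ERVK elements to betaretroviruses and ERVL elements to spumaviruses, while the ERVL-MaLR elements are non-autonomous relatives of ERVL. A predicted piRNA is a call of a program on the reads, and neither PIWI binding nor PIWI proteins were measured in these libraries.

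Total counts ran from 23.95 M to 25.79 M per library. Levels are given as CPM, counts scaled to a common total over all entries of a library. Each predicted piRNA that a library listed had at least 10 counts there, which is 0.388 to 0.417 CPM. Where a library did not list a member, its count was entered as 0. What kept it off the list, a low count or the prediction itself, is not given in the sources used here. Control library 2 stood apart, with known miRNAs at 65.5% of counts against 46.2% to 60.0% in the other libraries. PRMT1 library 1 had the lowest share of piRNA class counts, 0.576% against 1.25% to 2.44%. The tables hold small RNA, so PRMT1 mRNA was not measured and the group labels could not be checked by it. All 7 epithelial miRNAs on the marker list had counts, and summed to 4147 to 5091 CPM in control and 3772.5 to 5289.9 CPM in PRMT1 libraries. Nearly all of that sum was miR-200a-3p, miR-200b-3p and miR-429. The others were low, with miR-200c-3p at 20.3 to 31.1, miR-141-3p at 6.55 to 15.4, miR-205-5p at 2.08 to 5.62 and miR-203a-3p at 1.42 to 2.66 CPM. Neural miRNAs summed to 105 to 120 CPM in control and 91.6 to 146 CPM in PRMT1 libraries. The muscle, fibroblast and liver sums reached at most 21.9 CPM. Of 8 miRNAs of pluripotent and germ cells 6 had counts, with a sum of at most 0.166 CPM, and miR-367-3p and miR-373-3p were at 0.

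The LTR piRNAs were few in counts and spread over many repeat copies. They took 13156, 8613 and 10945 counts in control libraries 1 to 3 and 16893, 7911 and 22403 counts in PRMT1 libraries 1 to 3, between 0.0307% and 0.0935% of all counts. The 329 members came from 109 elements, of which 56 gave a single member and 10 gave 6 or more. Those 10 elements held 160 members. Element intervals were 41 to 2699 bases long with a median of 429, and 61 lay on the plus and 48 on the minus strand. The files give the interval of the element and not that of each piRNA, so members of 1 element share a source and may overlap in sequence, which was not assessed.

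ERV1 was the largest family, with 130 members in 49 elements and 43.3% of the summed LTR level. ERVL-MaLR followed with 82 members in 35 elements and 22.6% of the level. ERVK had 76 members but only 4 elements, and 70 of these members came from 1 element on chromosome 3. ERVL had 38 members in 19 elements. The remaining entries were 2 members of 1 element named ERV and 1 member in a Gypsy element.

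Members were mostly rare. The median of the mean level was 0.344 CPM, 245 members (74.5%) had a mean under 1 CPM and 13 reached 10 CPM. The 10 most abundant members held 36.2% of the summed LTR level, and the 10 most abundant elements 67.8%.

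Listing varied from library to library. Control libraries 1 to 3 listed 177, 118 and 176 members, and PRMT1 libraries 1 to 3 listed 226, 142 and 212. Of the 329 members, 113 (34.3%) were listed in a single library, with a median count of 12, and 88 (26.7%) in all 6. The 88 held 83.7% of all LTR counts. The share listed in every library was 40.4% for LINE piRNAs and 25.9% for piRNAs of DNA transposons, a difference that was not tested. Among the larger families, 34.2% of ERVK and of ERVL members, 28.5% of ERV1 members and 14.6% of ERVL-MaLR members were listed in every library.

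**Figure D1:**
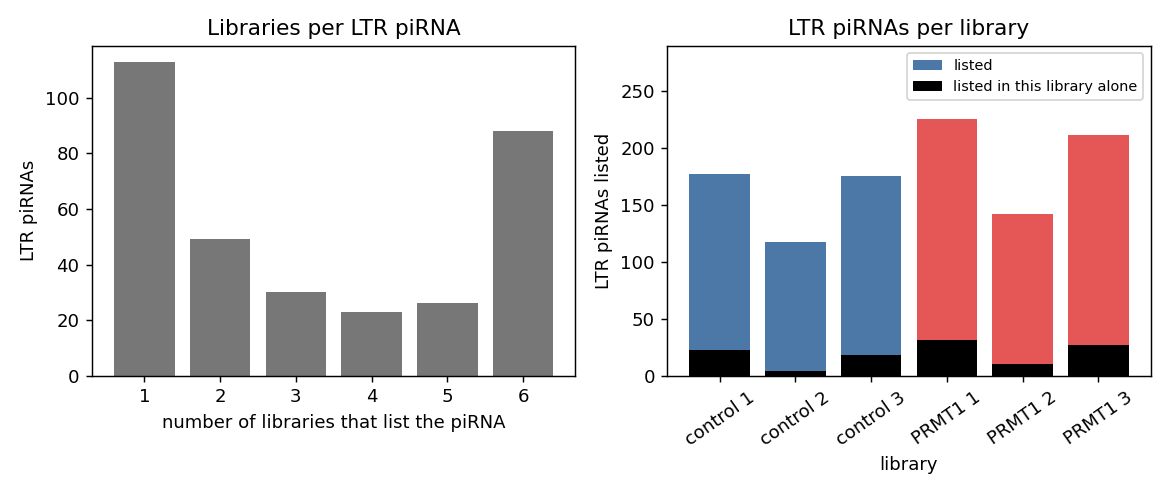
Left, the number of LTR piRNAs (y axis) by the number of libraries that list them (x axis). Right, LTR piRNAs listed in each library, blue for control and red for PRMT1, with those listed in that library alone in black. Most members sit at the ends, 113 in a single library and 88 in all 6, and PRMT1 library 1 lists the most, 226.

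Within a group the lists overlapped in part. Between any pair of control libraries 105 to 132 members were shared, which was 59.9% to 89.0% of the list of the lower-numbered library and 59.7% to 89.8% of the other. PRMT1 libraries 1 and 3 shared 176 members, 77.9% and 83.0% of their lists, while each shared fewer with PRMT1 library 2. Over the 88 members listed everywhere, the Spearman correlation of levels was 0.794 to 0.855 between control libraries, 0.903 between PRMT1 libraries 1 and 3, and 0.663 to 0.678 between PRMT1 library 2 and the others of its group. These correlations run across piRNAs, which are not independent replicates. Libraries of different groups gave 0.636 to 0.889, the highest being control library 2 with PRMT1 library 2.

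The spread between replicates was larger than counting alone would give. Over the same 88 members the median SD of log2 CPM within a group was 0.66, beside 0.21 from counting error, and in 82 of the 88 the observed SD was the larger. The highest library exceeded the lowest by 3.40-fold at the median. The steadiest was novel_pir17, an ERV1 piRNA of chromosome 1 (119873760 to 119874265, minus strand), with 193, 142 and 134 counts in control and 183, 168 and 144 in PRMT1 libraries, a range of 1.41-fold. At the other end was novel_pir648, an ERV1 piRNA of chromosome 8, with a range of 49.6-fold. It had 25, 25 and 57 counts in control and 153, 14 and 645 counts in PRMT1 libraries, the last of which stood far above the rest. These members were chosen for their range. Coordinates are those of the deposited files, for which the submitters' processing notes name GRCh37.p13. The annotation at hand is of another build, so no gene, exon or intron is named for these elements.

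The summed level of all LTR piRNAs was 537, 343 and 456 CPM in control libraries 1 to 3 and 703, 307 and 935 CPM in PRMT1 libraries 1 to 3. PRMT1 libraries 1 and 3 were thus the highest and PRMT1 library 2 the lowest of the 6, and the groups overlapped. The means were 445 ± 97.4 CPM (SD, n = 3) in control and 648 ± 318 CPM (SD, n = 3) in PRMT1 libraries, a log2 ratio of 0.54. Leaving out PRMT1 library 2 gave a ratio of 0.88, PRMT1 library 3 a ratio of 0.18 and control library 2 a ratio of 0.38. As a share of piRNA class counts, which was 12.2% in PRMT1 library 1 and 1.26% to 4.04% in the others, the log2 ratio was 1.14. In bulk RNA, a change in every cell and a change in some of the cells cannot be told apart.

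Other measures also moved between these libraries, and their part in the LTR levels was not tested. Reads of gene exons took 4.87%, 2.60% and 5.21% of counts in control libraries, against 6.04%, 5.43% and 6.73% in PRMT1 libraries. For ribosomal RNA fragments the shares were 3.39%, 2.37% and 4.17%, against 1.70%, 4.03% and 2.87%. Summed blood miRNAs were at 2.37 to 4.424 CPM in control and 4.421 to 10.1 CPM in PRMT1 libraries, with all 5 on the list having counts, nearly all of them of miR-451a, and miR-142-5p at 0 to 2 counts. LINE piRNAs ranged from 604 to 1075 CPM and piRNAs of DNA transposons from 446 to 685 CPM over the 6 libraries. The coefficient of variation over libraries was 43.5% for the LTR sum, 19.1% for LINE and 17.9% for DNA transposons, and the difference was not tested.

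**Figure D2:**
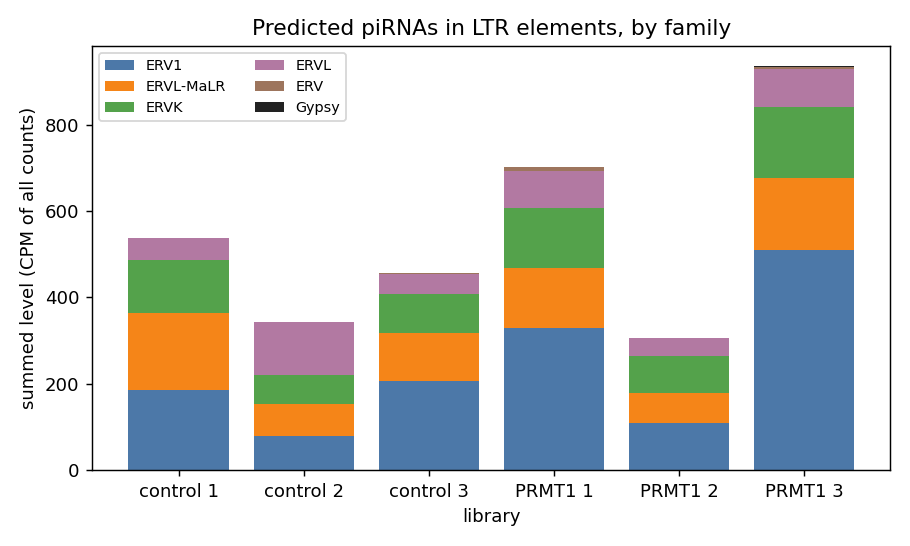
Summed level of LTR piRNAs in each library (bars, CPM of all counts), divided by family. PRMT1 libraries 1 and 3 stand highest at 703 and 935 CPM, PRMT1 library 2 lowest at 307 CPM, and ERV1 (blue) makes up most of the difference between them.

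The families differed in how they followed this order. ERV1 was at 186, 78.7 and 207 CPM in control and 329, 109 and 510 CPM in PRMT1 libraries, a log2 ratio of 1.01 with overlapping groups. Without PRMT1 library 3 that ratio was 0.48, and without control library 2 it was 0.69. ERVK was at 123, 66.4 and 92.2 CPM in control and 140, 84.6 and 164 CPM in PRMT1 libraries, a log2 ratio of 0.47. Single omissions moved it between 0.26, when PRMT1 library 3 was left out, and 0.71, when control library 1 was.

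ERVL-MaLR lay at 179, 74.8 and 110 CPM in control and 139, 71.0 and 167 CPM in PRMT1 libraries, a log2 ratio of 0.05 that ran from -0.21 to 0.45 as single libraries were left out. ERVL was at 49.9, 123 and 46.5 CPM in control and 85.7, 41.6 and 88.0 CPM in PRMT1 libraries, and its log2 ratio of -0.03 rested on 1 member in control library 2. That member, novel_pir652, is described below. Without it the ERVL ratio was 0.94. The pair of ERV members summed to 0, 12 and 13 counts in control and 202, 20 and 118 counts in PRMT1 libraries. The Gypsy member, novel_pir594 of chromosome 7, was listed with 19 and 39 counts in PRMT1 libraries 1 and 3 and in no other library.

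Whether PRMT1 changed single members was tested with edgeR over all named small RNAs together. Of 1712 features with enough counts, 162 were LTR piRNAs, and the other 167 members did not pass the filter on low counts. No LTR piRNA passed an adjusted p of 0.05, 0 of 162 with edgeR, where the background over all features tested was 0%. Adjusted p-values of the 162 started at 0.9997. Before adjustment, 10 LTR piRNAs (6.17%) had a p under 0.05, beside a background of 3.5%, and 3.45% over the 521 predicted piRNAs tested. Of the 10, 9 were higher in PRMT1 libraries, where the background over all features was 1.87%, and 1 was lower, where it was 1.64%. The count called was 0 with limma-voom and 1 with DESeq2, where 0.467% of all features were called. DESeq2 called novel_pir227 (adjusted p = 0.0448).

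The tested LTR piRNAs had a median log2 fold change of 0.36, 106 above and 56 below 0, beside a median of 0.00 over all 1712 features. These are the members that passed the filter on low counts and not the whole set. Without that filter all 329 members had a median of 0.71, and 48 of them (14.6%) an unadjusted p under 0.05, where the background over 4208 features was 4.28%, with 0 called. Many of those fitted values rest on entries of 0. The lowest listed count was 10 for predicted piRNAs and 1 for the piRNAs not predicted from these reads. The background over 4208 features is therefore not all under the same floor. LINE piRNAs had a median of 0.13 over 247 tested, and piRNAs of DNA transposons 0.25 over 112, with 0 called by edgeR in either class and 3 and 5 at an unadjusted p under 0.05. Scaled by library size alone, the median of all features moved to 0.15 and that of LTR piRNAs to 0.47. With unlisted predicted piRNAs set to 9 counts, just under the lowest count listed, the LTR median was 0.23. With unlisted members at 0, it moved as single libraries were left out, to 0.13 for PRMT1 library 1, 0.18 for PRMT1 library 3, 0.68 for control library 3, 0.81 for PRMT1 library 2 and 0.84 for control library 1. Each omission also changed which members passed the filter on low counts, so these medians are over differing sets. Without PRMT1 library 2, 51 of 203 LTR piRNAs had an unadjusted p under 0.05, where the background was 9.59%, and 0 passed the adjusted threshold. The 203 include members that the main fit did not test, such as novel_pir594, listed in PRMT1 libraries 1 and 3 alone. Its control values are all entered as 0. How many of the 51 are such members is not given here, so the 51 are not read as a trait of LTR piRNAs.

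The median was 0.37 for the 67 tested ERV1 members, 0.29 for 42 of ERVK, 0.53 for 22 of ERVL and 0.28 for 30 of ERVL-MaLR. The groups did not overlap in 14 of the 162 LTR piRNAs (8.64%), beside a background of 7.48%. In 12 of the 14 the PRMT1 libraries lay above, where the background in that direction was 4.5%, and 6 of these 12 came from the 1 ERVK element of chromosome 3. The control libraries lay above in novel_pir79 and novel_pir203, where the background was 2.98%. Of the 14, novel_pir227 was unlisted in every control library, and novel_pir765, novel_pir855 and novel_pir203 also hold values entered as 0. The background features are not all under the same floor of 10 counts.

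**Figure D3:**
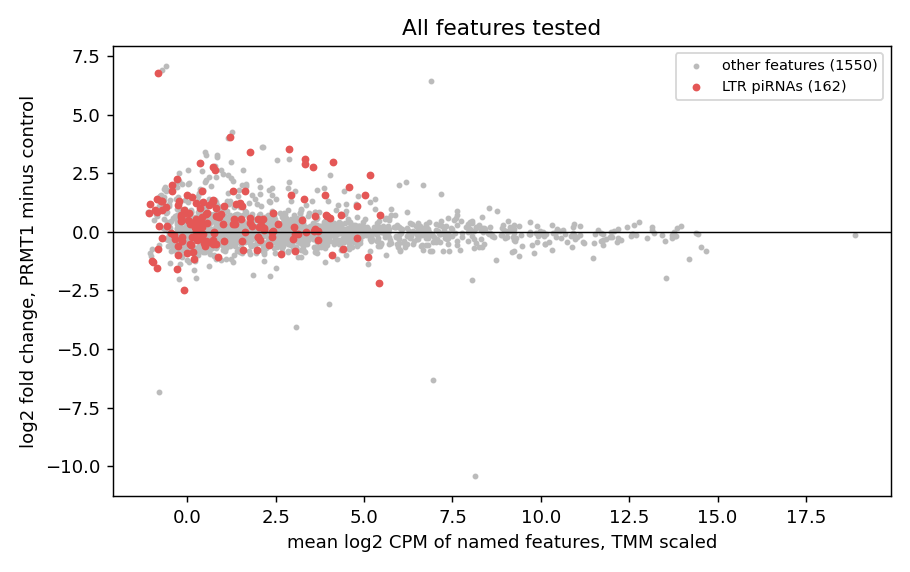
Log2 fold change (PRMT1 minus control, y axis) against mean level (log2 CPM of named features after TMM scaling, x axis) for the 1712 features tested, with the 162 LTR piRNAs in red. LTR piRNAs lie at low levels, where the spread of all features is wide, and none passed the adjusted threshold with edgeR.

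Among ERV1 piRNAs the most abundant was novel_pir862, from an element of chromosome 22 (46576693 to 46577822, plus strand). It had 116, 93 and 306 counts in control and 605, 174 and 2031 counts in PRMT1 libraries. PRMT1 libraries 3 and 1 were the highest, and PRMT1 library 2 lay within the control range. The log2 fold change was 2.43 (SE 0.98, edgeR adjusted p = 0.9997), and 1.11 without PRMT1 library 3.

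A set of members from other chromosomes shared its highest libraries, PRMT1 library 3, then PRMT1 library 1, then control library 3, while the order of the remaining libraries differed. Likeness was the Pearson correlation of log2 CPM over 6 libraries, taken among the 88 members listed in every library. The members most like novel_pir862 were novel_pir9 (0.980), novel_pir601 (0.979), novel_pir851 (0.975), novel_pir752 (0.963) and novel_pir648 (0.951). They lie in 5 different elements, on chromosomes 1, 8, 19, 12 and 8, and 4 of the 5 are ERV1. The correlations describe these libraries, which share their depth and composition with all entries, and carry no test.

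The ERV1 piRNA novel_pir9 (chromosome 1, 45352605 to 45353328, plus strand) had 23, 36 and 118 counts in control and 384, 56 and 993 counts in PRMT1 libraries. Its log2 fold change was 2.98 (SE 1.14, edgeR adjusted p = 0.9997), and 1.81 without PRMT1 library 3. PRMT1 libraries 1 and 3 were above every control library and PRMT1 library 2 was below control library 3.

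In the ERV1 element of chromosome 19 (20473390 to 20473623, plus strand), novel_pir851 had 198, 119 and 437 counts in control and 703, 167 and 1411 counts in PRMT1 libraries. On chromosome 12 (30997247 to 30997355, plus strand), novel_pir752 had 154, 100 and 201 counts in control and 393, 99 and 1260 in PRMT1 libraries. Their log2 fold changes were 1.57 (SE 0.85) and 1.92 (SE 0.90), which fell to 0.72 and 0.63 without PRMT1 library 3. In both, PRMT1 libraries 1 and 3 were highest. PRMT1 library 2 lay between control libraries 1 and 2 for novel_pir851 and just below all of them for novel_pir752.

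Not every abundant ERV1 member behaved this way. The ERV1 piRNA novel_pir816 (chromosome 17, 21237398 to 21238245, plus strand) had 807, 106 and 503 counts in control and 595, 113 and 486 in PRMT1 libraries. Library 2 was low in both groups, and the log2 fold change was -0.28 (SE 0.84), or 0.34 without control library 1 and 0.17 without PRMT1 library 2.

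**Figure D4:**
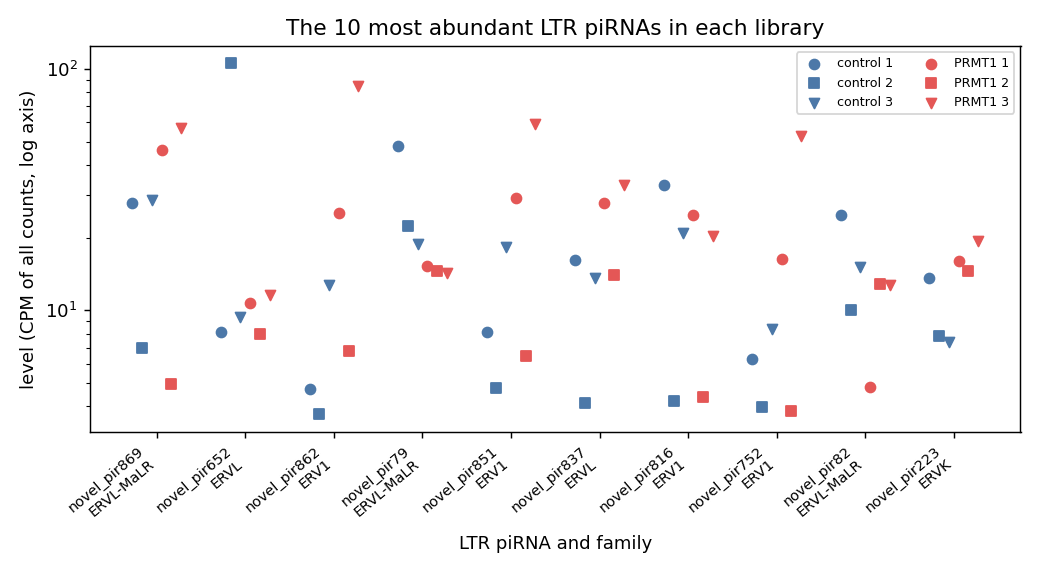
Level of the 10 most abundant LTR piRNAs (x axis, with family) in each library, in CPM of all counts on a log axis, control blue and PRMT1 red. For novel_pir862, novel_pir851 and novel_pir752 PRMT1 libraries 1 and 3 stand above the control libraries while PRMT1 library 2 does not, and control library 2 stands alone for novel_pir652.

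The ERVK element on chromosome 3 (15779666 to 15780942, minus strand, 1276 bases) was the most abundant LTR element and held 20.1% of the summed LTR level. Its 70 members, novel_pir179 to novel_pir248, summed to 2985, 1665 and 2080 counts in control and 3311, 2165 and 3879 in PRMT1 libraries. The libraries listed 41, 35 and 39 of them in control and 51, 37 and 50 in PRMT1. The counts were shared among many members, and the most abundant, novel_pir223, held 8.51% to 17.3% of the element's counts.

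Members of this element differed in direction. Of the 26 listed in every library, 17 had a higher and 9 a lower mean level in PRMT1 libraries, with log2 ratios from -0.88 to 1.79. As a background, 63.9% of all 1712 features and 70.4% of tested LTR piRNAs lay above 0 when scaled by library size alone. The split is thus not read as a trait of this element. The 9 lower ones all had numbers from 198 to 217. Only 4 of the 17 higher ones fell in that stretch, 4 had lower and 9 had higher numbers. This pattern was noticed in the data, and whether the numbers follow position in the element is not given in the sources used here.

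On the higher side, novel_pir223 had 332, 197 and 177 counts in control and 384, 375 and 462 counts in PRMT1 libraries, and the groups did not overlap. Its log2 fold change was 0.73 (SE 0.32, edgeR adjusted p = 0.9997), and 0.61 to 1.07 as single libraries were left out. Next, novel_pir230 had 194, 172 and 148 counts in control and 284, 261 and 352 in PRMT1 libraries, also without overlap (log2 0.73, SE 0.28). All 3 PRMT1 libraries lay above the control libraries for these members, PRMT1 library 2 included.

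Lower in level, novel_pir220 had 19, 23 and 13 counts in control and 37, 34 and 54 in PRMT1 libraries, again without overlap (log2 1.10, SE 0.41). The piRNA novel_pir193 had 31, 15 and 18 counts in control and 88, 25 and 106 in PRMT1 libraries (log2 1.72, SE 0.62). Here PRMT1 library 2 lay within the control range. On the lower side, novel_pir198 had 81, 90 and 45 counts in control and 38, 57 and 40 in PRMT1 libraries (log2 -0.77, SE 0.38), and the groups overlapped.

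**Figure D5:**
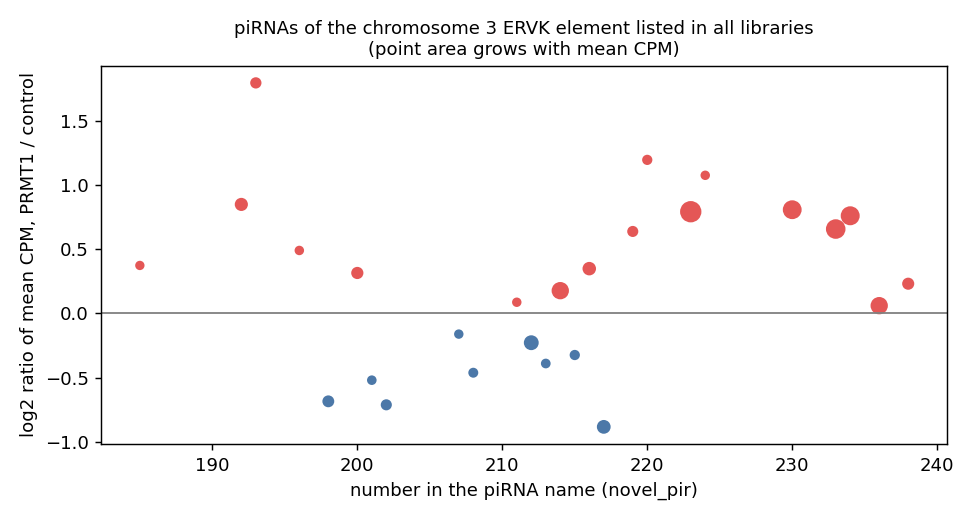
Log2 ratio of mean CPM, PRMT1 over control (y axis), for the 26 piRNAs of the chromosome 3 ERVK element listed in all 6 libraries, by the number in the name (x axis), with larger points for higher mean level. The 9 members below 0 (blue) have numbers from 198 to 217, and the most abundant, novel_pir223, lies above 0 (red).

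Some members were listed in PRMT1 libraries alone. The 1 member listed in all 3 PRMT1 and no control library was novel_pir227 of the ERVK element, with 17, 11 and 14 counts, close to the lowest count listed, 10. Its fitted fold change rests on control values entered as 0, and with those set to 9 counts the log2 fold change was 0.54 (SE 0.34, edgeR adjusted p = 0.937). No member was listed in all 3 control and no PRMT1 library. Over any number of libraries, 102 members were listed in PRMT1 libraries only, 50 in control libraries only and 177 in both groups. Of the 102, 68 were listed in a single library, as were 45 of the 50. The same counts are not given here for the other features, so they are not read as a trait of LTR piRNAs. The other predicted piRNAs were also listed in larger number in PRMT1 libraries 1 and 3 than in any control library. For LINE piRNAs 237, 191 and 253 were listed in control and 293, 250 and 304 in PRMT1 libraries. For piRNAs of DNA transposons the numbers were 118, 83 and 108, against 151, 120 and 136.

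PRMT1 libraries 1 and 3 were the only source of 29 members from 21 elements, the most of any pair of libraries, where the other 14 pairs had 0 to 5. Counts of this kind are not given here for the other features, so they are not read as a trait of LTR piRNAs. By family, 11 of the 29 were ERV1, 8 ERVK, 5 ERVL-MaLR and 3 ERVL. The highest counts were those of novel_pir693, an ERV1 piRNA of chromosome 11 with 75 and 125 counts, and of novel_pir225 in the chromosome 3 ERVK element with 84 and 100 counts. Both were chosen after their values were seen. Of the 88 members listed everywhere, 33 were higher in PRMT1 libraries 1 and 3 than in every control library, where the background was 16.4% of 1446 tested features with counts in every library. In 24 of the 33 PRMT1 library 2 was not. The opposite, PRMT1 libraries 1 and 3 below every control library, held for 9 of the 88, where the background was 10%. PRMT1 libraries 1 and 3 were set apart with the LTR sums in view, which were highest there. The 33 and the 9 thus describe these libraries and carry no test.

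The most abundant LTR piRNA of all was novel_pir869, the sole member of an ERVL-MaLR element on chromosome X (22079950 to 22080361, minus strand). It had 680, 175 and 686 counts in control and 1113, 127 and 1358 in PRMT1 libraries, a mean of 21.1 ± 12.2 CPM and 36.0 ± 27.4 CPM (SD, n = 3). Library 2 of each group was low and the groups overlapped (log2 0.73, SE 0.90). With PRMT1 library 3 left out the log2 fold change was 0.20, with control library 2 left out 0.33 and with PRMT1 library 2 left out 1.25.

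The second most abundant element, with 16 members, was an ERVL-MaLR element of chromosome 1 (163619801 to 163620206, minus strand). It summed to 2382, 1006 and 1045 counts in control and 962, 924 and 1171 in PRMT1 libraries. Control library 1 stood far above the rest, and the groups overlapped. Of its 5 members listed in every library, 4 had a lower and 1 a higher mean level in PRMT1 libraries. The higher one, novel_pir88, had 100, 23 and 55 counts in control and 261, 28 and 251 in PRMT1 libraries (log2 1.57, SE 0.89). Among the lower ones, novel_pir79 had 1173, 560 and 451 counts in control and 366, 376 and 340 counts in PRMT1 libraries. All control libraries lay above all PRMT1 libraries for novel_pir79. The log2 fold change was -1.08 (SE 0.38, edgeR adjusted p = 0.9997), and -0.54 without control library 1. It was the only tested LTR piRNA with an unadjusted p under 0.05 and a lower mean in PRMT1 libraries.

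From the same element, novel_pir82 had 609, 252 and 363 counts in control and 115, 332 and 306 in PRMT1 libraries (log2 -0.75, SE 0.51; -0.32 without control library 1, -0.40 without PRMT1 library 1). A further member there, novel_pir77, had 262, 100 and 120 counts in control and 64, 132 and 88 in PRMT1 libraries (log2 -0.83, SE 0.46; -0.25 without control library 1). In both the groups overlapped and control library 1 was the highest. Another ERVL-MaLR piRNA, novel_pir408 of chromosome 5 (96907797 to 96908256, minus strand), had 462, 339 and 224 counts in control and 93, 255 and 198 in PRMT1 libraries (log2 -0.98, SE 0.46). Its groups overlapped through PRMT1 library 2 and control library 3.

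The ERVL piRNA novel_pir652 (chromosome 8, 102053307 to 102053790, plus strand) was set by 1 library. It had 199, 2642 and 224 counts in control and 257, 205 and 278 in PRMT1 libraries. Control library 2 alone was high, the other 5 lying close together, and the log2 fold change of -2.19 (SE 1.09) became 0.19 without it. From the same element, novel_pir654 had 25, 35 and 46 counts in control and 12, 32 and 10 in PRMT1 libraries (log2 -1.07, SE 0.55). Here control library 2 was not the highest, and the groups overlapped.

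The other abundant ERVL piRNA, novel_pir837 (chromosome 19, 9533372 to 9534389, plus strand), had 395, 104 and 326 counts in control and 668, 361 and 788 in PRMT1 libraries. PRMT1 library 2 lay below control library 1 in counts, so the groups overlapped (log2 1.10, SE 0.55; 0.73 without control library 2). In the element named ERV, on chromosome 20 (54684838 to 54685261), novel_pir855 was unlisted in control library 1, had 12 and 13 counts in control libraries 2 and 3, and 178, 20 and 90 in PRMT1 libraries. The groups did not overlap, and with the unlisted value set to 9 counts the log2 fold change was 2.96 (SE 0.77, edgeR adjusted p = 0.912).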

How the data were processed

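The authors deposited, per the file headers, a table for each library that gives every small RNA its class, description, read count and TPM. These deposited counts are whole reads without normalisation. TPM values deposited by the authors equalled CPM of the column total within 0.005 and served for that check alone. The submitters' processing notes list HISAT, Bowtie2, RSEM and the build GRCh37.p13 and give no role for them. Which program predicted piRNAs, and how reads with several matches were handled, is not given in the sources used here. Library protocols in the labels describe mRNA enrichment or rRNA removal, while the tables hold small RNA.

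Entries were keyed by identifier, class and description. The lowest listed count of a predicted piRNA was 10, and unlisted members were entered as 0. The totals for exon, intron, intergenic and repeat reads, 23.3% to 40.4% of counts, name no feature and were left out of the fits. The other 4208 entries were filtered (filterByExpr), TMM scaled and tested by quasi-likelihood (glmQLFit, robust) in edgeR 4.0.16 (R 4.3.3) without a block, with Benjamini-Hochberg adjustment over 1712 features, and the code was tested on simulated data. SEs are the fold change over the root of F. Sums over members got no test. DESeq2 1.42.0 and limma 3.58.1 were alternatives. Other scalings and filters, and omission of each library in turn, were also tried.

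The members, lists and rules were chosen with earlier results of these data known. Named members were the 10 of highest mean CPM, the highest of each family, the 6 of smallest p in each direction, and members listed in all 3 libraries of 1 group alone. Other members, the 5 most like novel_pir862 among them, were picked with their values in view.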

Additional observations from a re-analysis of the deposited data

How the results depend on the processing

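The number of LTR piRNAs called stayed at 0 with every other scaling, filter and omission of a library, and was 1 with DESeq2. The number of all features called was 8 with DESeq2 and otherwise 0 to 1 as single libraries were left out, the 1 being hsa-miR-378e without PRMT1 library 1. Setting unlisted predicted piRNAs to 9 counts, keeping the 4 totals and summing members per element were chosen after seeing the data and gave 0 calls. With members listed in all 6 libraries alone, also chosen after seeing the data, the log2 ratio of the LTR sum was 0.42. As a share of piRNA class counts every sum moved up, with log2 ratios of 1.14 for the LTR sum, 1.65 for ERV1, 1.07 for ERVK, 0.68 for ERVL-MaLR and 0.45 for ERVL. The piRNA class took 0.576% of counts in PRMT1 library 1, against 1.25% to 2.44% in the others, and why was not tested. Without its most abundant member, novel_pir652, the ERVL log2 ratio was 0.94. Leaving out single libraries gave 298 to 325 members, log2 ratios of 0.18 to 0.88 for the LTR sum, 0.48 to 1.42 for ERV1, -0.21 to 0.45 for ERVL-MaLR, 0.26 to 0.71 for ERVK and -0.27 to 0.57 for ERVL. Of 20 named members with a fit, 18 kept their sign in every setting that gave them a value, which for novel_pir227 left out the stricter filter and the fit of the piRNA class alone. Omissions of a library turned novel_pir652 (-2.61 to 0.19) and novel_pir816 (-0.74 to 0.34). With the replicate number as a block, 0 of 162 LTR piRNAs and 0 of all features were called, and the log2 ratio of the LTR sum as a mean of paired differences was 0.42. Same-numbered libraries had correlations of deviations of 0.137, 0.285 and 0.077 over 1712 features. Over the 162 tested LTR piRNAs the values were 0.046, 0.383 and 0.219. In both sets library 2 gave the highest value of any control and PRMT1 library, while control library 1 was most like PRMT1 library 3 (0.165 over all features). The numbers were not taken as pairs in the main fit, and these values do not settle whether they mark pairs. No listed member had under 10 counts in a library, so lower levels were not seen.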
